A study of Mus musculus with 9 samples.

Results

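Rab GTPases are small GTP-binding proteins that sit on the membranes of the secretory and endocytic pathways. In the GTP-bound state each one recruits effectors that bud, move, tether and fuse a particular kind of vesicle. Guanine nucleotide exchange factors (GEFs) switch them on, GTPase-activating proteins (GAPs) switch them off, and GDP dissociation inhibitors (GDIs) carry the prenylated, inactive form through the cytosol. In macrophages they direct uptake by phagocytosis, traffic to the lysosome and release of cytokines. The genes described here are the rows of the read count table whose symbol is Rab followed by a number, with or without a letter. For each symbol the row with the most reads was taken, and a gene was kept when it exceeded 1 CPM, the reads of a gene scaled to a library of 1e6 reads, in at least 3 libraries. Of 59 Rab symbols in the table, 44 passed and 15 did not, 1 of the latter (Rab9b) by a row annotated as a processed pseudogene, and these 44 members are part of 11950 genes tested in all.

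The data come from RNA sequencing of bone marrow-derived macrophages (BMDMs) of male wild-type mice (C57B6 in the labels, C57bl6/J in the methods of the study), grown with CSF1 at 50 ng/ml. The 9 libraries form 3 groups of 3, namely untreated cells (UNX), cells given the conditioned medium of pulmonary artery adventitial fibroblasts from control calves (CO-CM), and cells given the same kind of medium from fibroblasts of calves with hypoxia-induced pulmonary hypertension (PH-CM). For the treatment the growth protocol in the labels gives 16 h and their treatment protocol 24 h, while the methods of the study give yet another time that lies between these. The medium is bovine and the cells are murine, each medium was pooled from several fibroblast populations, and the UNX cells received no conditioned medium, so a replicate stands for a further macrophage culture and not for another calf. Counted reads per library ran from 62017933 to 84314201. Of the 8 macrophage markers listed, such as Csf1r, Cd68 and Lyz2, all passed the filter, with a summed level of 12349 to 12881 CPM in UNX, 18518 to 19265 in CO-CM and 21555 to 22851 in PH-CM. Of 8 mast cell markers, 6 had no read in any library, and lymphocyte markers summed to at most 0.192 CPM. Fibroblast markers were present in every group, between 201 and 254 CPM in UNX, 259 and 309.7 in CO-CM and 250.2 and 329 in PH-CM, and the platelet and erythroid list, nearly all of it the platelet chemokine gene Pf4, summed to 156 to 178 CPM in UNX, 108 to 132 in CO-CM and 219 to 264 in PH-CM. The part of these markers in the results was not tested.

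The question asked was which members of the Rab family and of its regulatory machinery changed in macrophages under each medium, and where PH-CM differed from CO-CM. A gene was called when edgeR's quasi-likelihood test gave a Benjamini-Hochberg adjusted p of at most 0.05 over all genes tested and the fold change was at least 1.2. Under PH-CM, 14 of the 44 members were higher than in UNX and 4 were lower, that is 31.8% and 9.09%. Rab44 is 1 of the members counted as higher in each of the 3 comparisons and in each count at a fold change of 2. It passed the filter only through PH-CM, so PH-CM had to differ in it from UNX and from CO-CM. Among all genes tested for PH-CM against UNX, 31.3% were called higher and 31.7% lower. Under CO-CM, 12 members were higher and 4 lower than in UNX, 27.3% and 9.09%, against 28% and 28.9% of all genes. Without a correction for library composition the CO-CM split was 10 higher and 8 lower. The median log2 fold change of all genes was then -0.07, and the share of all genes called under that setting is not given here. Between the media, 7 members were higher with PH-CM than with CO-CM and 4 were lower, 15.9% and 9.09%, against 12.2% and 15% of all genes. The share of members called higher was thus near the background in each comparison, and the share called lower was smaller than the background. In bulk RNA, a lower level per cell and a smaller number of cells that express the gene cannot be told apart.

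Most of the family moved little. The median log2 fold change of the members was 0.10 for PH-CM against UNX, 0.09 for CO-CM against UNX and 0.06 for PH-CM against CO-CM, beside 0.01, 0.00 and -0.01 over all genes. Their median absolute log2 fold change was 0.23 for PH-CM against UNX and 0.22 for CO-CM against UNX, where all genes had 0.43 and 0.36. Between the media it was 0.14, close to the 0.17 of all genes. Leaving out Rab44, the fold changes for PH-CM against UNX ran from -1.73 for Rab27a to 1.59 for Rab20, and 32 of the 44 members lay within 0.5 of zero. A fold change of at least 2 was called for 4 members under PH-CM and 4 under CO-CM against UNX, and for 2 members between the media, while 18%, 13.8% and 5.12% of all genes passed that threshold. These were Rab44, Rab20, Rab43, Rab9, Rab6b and Rab27a. Members called in none of the 3 comparisons include Rab10, Rab14, Rab18, Rab2a, Rab31, Rab32 and Rab35.

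**Figure D1:**
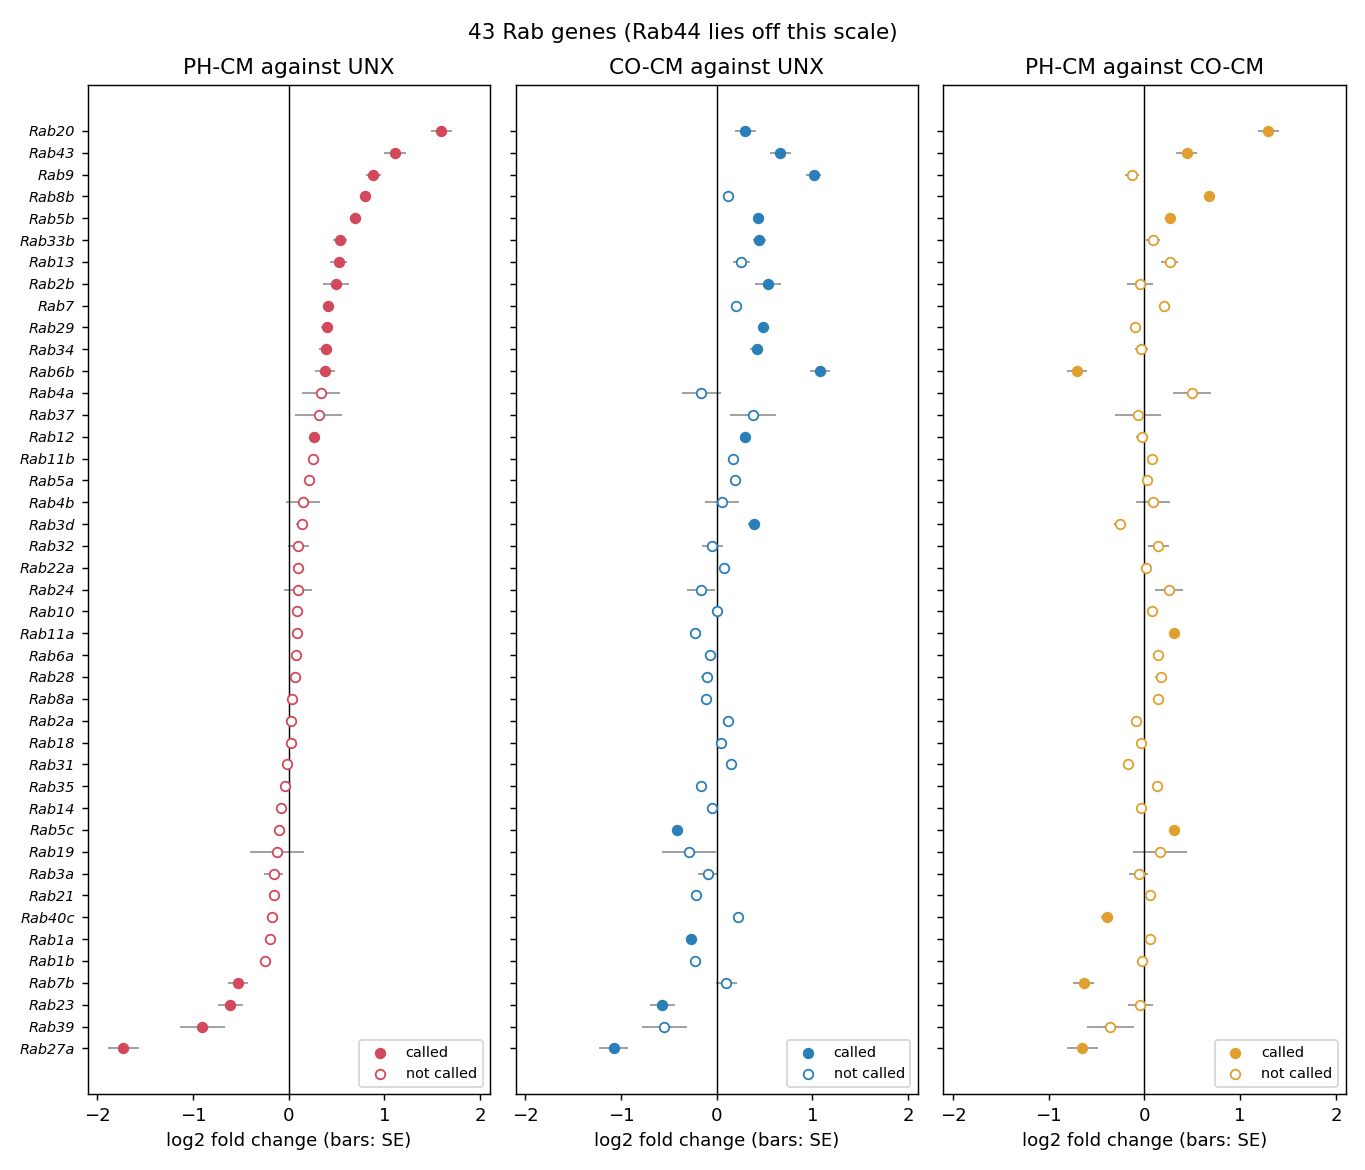
Log2 fold change (x axis) of 43 Rab genes (y axis) in the 3 comparisons, with bars for the standard error (SE); filled points were called and open points were not. Most points lie close to 0, Rab20 leads at 1.59 and Rab27a is lowest at -1.73 for PH-CM against UNX, and Rab44 at 8.93 is left off this scale.

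To show where 4 of these genes begin, the bases just before their starts were read from RefSeq promoter windows (GRCm38.p6), which held 38 of the 44 members. Rab20 and Rab8b are shown because they rose with PH-CM beyond CO-CM, Rab9 because it rose with both media, and Rab27a because it fell with both. Capitals mark each match to the short core of the hypoxia response element, ACGTG or GCGTG on either strand (CACGT or CACGC on the printed strand). Only bases before both the RefSeq and the GENCODE start are printed, 5′ to 3′ on the strand of the gene. The windows are chr8:11478711-11478890 (minus) for Rab20, chr9:66919706-66919955 (minus) for Rab8b, chrX:166479868-166480117 (minus) for Rab9 and chr9:73044560-73044809 (plus) for Rab27a.
Rab20: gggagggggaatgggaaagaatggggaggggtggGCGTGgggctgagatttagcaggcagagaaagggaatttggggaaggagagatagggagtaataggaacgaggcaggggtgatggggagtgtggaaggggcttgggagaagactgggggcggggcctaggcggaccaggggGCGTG
Rab8b: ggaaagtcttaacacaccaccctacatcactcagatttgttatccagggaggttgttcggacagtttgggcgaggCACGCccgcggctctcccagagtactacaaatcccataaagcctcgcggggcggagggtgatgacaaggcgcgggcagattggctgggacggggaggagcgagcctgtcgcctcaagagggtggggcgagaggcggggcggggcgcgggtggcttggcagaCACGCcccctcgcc
Rab9: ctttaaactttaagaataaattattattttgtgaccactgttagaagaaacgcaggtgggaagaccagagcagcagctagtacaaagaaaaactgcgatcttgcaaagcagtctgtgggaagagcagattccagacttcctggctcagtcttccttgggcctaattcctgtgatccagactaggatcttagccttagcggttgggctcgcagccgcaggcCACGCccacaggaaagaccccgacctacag
Rab27a: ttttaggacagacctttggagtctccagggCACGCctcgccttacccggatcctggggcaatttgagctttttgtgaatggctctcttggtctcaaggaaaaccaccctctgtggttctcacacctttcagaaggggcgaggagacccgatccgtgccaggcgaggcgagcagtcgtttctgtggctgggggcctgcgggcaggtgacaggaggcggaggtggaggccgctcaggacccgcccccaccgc
Rab20 and Rab8b have 2 such matches each, and Rab9 and Rab27a have 1 each. This core is common, as 38.6% of 32817 windows of 250 bases hold it on either strand, and 25 of the 47 windows of Rab members do (53.2%). A match stands here in genes that rose and in a gene that fell, so it is a description of the letters and no binding site was measured. None of the 4 printed stretches holds TGANTCA (an AP-1 core), TTCNNNGAA (a STAT motif) or CACGTG (an E-box, which contains ACGTG), which 6.75%, 7.01% and 6.02% of all windows hold.

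Rab44 had the largest fold change of the 44. It is a large, atypical Rab with a C-terminal GTPase domain, known from mast cells and osteoclasts, and lies at chr17:29114145-29148980 on the plus strand (GRCm38) with 5065 exon bases that no other annotated gene shares. It was singled out with its change already known, so its values are a description. The 3 UNX libraries held 2, 2 and 0 reads, the CO-CM libraries 11, 26 and 10, and the PH-CM libraries 513, 739 and 569. As CPM this is 0.0309, 0.0265 and 0 in UNX, 0.161, 0.389 and 0.141 in CO-CM, and 7.63, 11.9 and 9.01 in PH-CM. The groups do not overlap, and the lowest PH-CM library held more Rab44 reads than the other 6 libraries together. The gene passed the filter only through the PH-CM libraries, so it had to differ between PH-CM and the other groups.

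The log2 fold change of Rab44 was 8.93 ± 0.47 (SE) for PH-CM against UNX, 3.56 ± 0.77 for CO-CM against UNX and 5.37 ± 0.33 for PH-CM against CO-CM, n = 3 per group. The sizes against UNX rest on 4 reads in 3 libraries. With reads divided by 2 to stand for read pairs, the pooled ratio of PH-CM to UNX was 514, with an exact 95% interval of 142 to 4254 that covers counting error only. The same ratio was 41.0 for PH-CM to CO-CM (27.4 to 64.3) and 12.5 for CO-CM to UNX (3.12 to 109.5). Set against the family, the log2 CPM of Rab44 minus the mean of the other 43 members was -9.70 ± 0.60 in UNX, -7.40 ± 0.70 in CO-CM and -2.14 ± 0.31 in PH-CM (SD, n = 3). That difference thus rose by 7.55 from UNX to PH-CM, while the mean log2 CPM of the other members was 0.13 higher in PH-CM than in UNX. Even so, Rab44 stayed a low member of the family. Its RPKM (reads per kilobase of exon, scaled to a library of 1e6 reads) was 1.87, 2.83 and 2.15 in PH-CM, and by median RPKM it ranked 36 of 44 there, against 44 of 44 in UNX and in CO-CM.

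The nearest genes did not share this pattern. Cdkn1a, a cell cycle inhibitor that ends 13418 bases before Rab44, fell from 293 ± 28.3 CPM in UNX to 123 ± 9.80 in CO-CM and 185 ± 17.5 in PH-CM (log2 fold change -1.26, adjusted p = 7.09e-07, and -0.67, adjusted p = 5.16e-05, edgeR). Cpne5, 6576 bases past the other end, had 2 reads in all 9 libraries. Of the genes further out, the splicing factor gene Srsf3 and the peptidyl-prolyl isomerase gene Ppil1 fell with PH-CM against UNX (-1.04 and -1.67), the kinase gene Stk38 rose (0.30), and BC004004 had a log2 fold change of -0.17. Across the 9 libraries, the genes whose log2 CPM followed Rab44 most closely were Pde4b, Dnm1, Tbk1, Ms4a6c and Nfe2l2 (Pearson r from 0.991 to 0.993), given as a description because the 9 libraries share 3 groups and 299 genes had an r of at least 0.95. Pde4b, a cAMP phosphodiesterase, stood at 3.26 ± 0.646 CPM in UNX, 7.89 ± 0.864 in CO-CM and 53.5 ± 9.74 in PH-CM. Dnm1, a dynamin that pinches off vesicles, stood at 1.92 ± 0.0434, 2.91 ± 0.422 and 8.62 ± 1.26 CPM. Cell types in which Rab44 is known were checked by their markers. Kit, the stem cell factor receptor and the main source of reads on the mast cell list, had 612 reads over the 3 UNX libraries, 404 in CO-CM and 56 in PH-CM, and Cpa3 had 3, 2 and 7. The 7 osteoclast markers summed to 18.2 to 31.0 CPM in UNX, 36.4 to 54.6 in CO-CM and 48.3 to 67.2 in PH-CM, mostly from Ctsk. Among them Calcr had no read, Ocstamp had 20, 4 and 4 reads per group and Dcstamp 339, 121 and 56. Acp5 had 238, 578 and 605 reads and, like Ctsk, was called higher in both media than in UNX (1.6 for PH-CM, adjusted p = 0.000565, edgeR). Of the 3 osteoclast markers that passed the filter, the other 1 was called lower with PH-CM than with UNX. The part of these markers in the level of Rab44 was not tested.

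**Figure D2:**
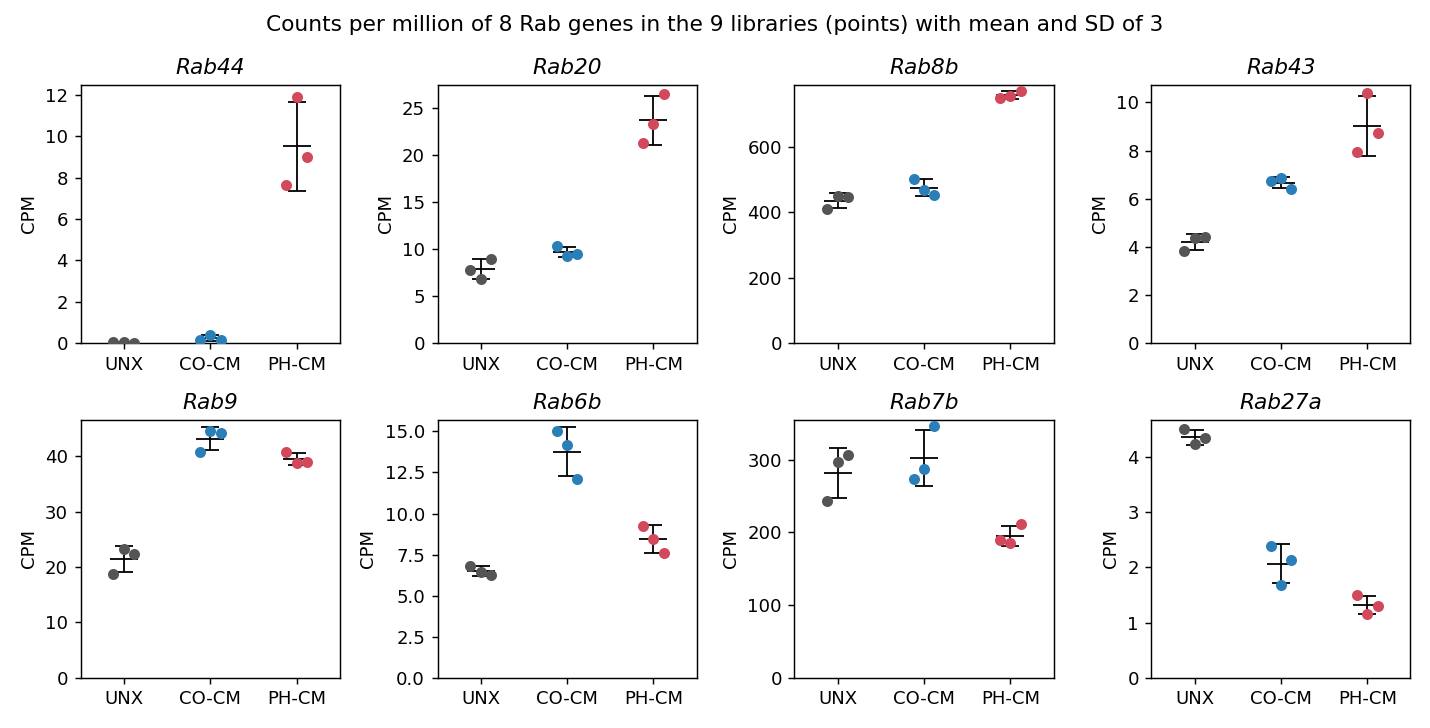
CPM (y axis, from 0) of 8 Rab genes in each of the 9 libraries (points, by group on the x axis), with the mean and SD of 3. Rab44 is near 0 outside PH-CM, Rab20 and Rab8b are highest in PH-CM, Rab43 rises from UNX to CO-CM to PH-CM, Rab9 is raised in both media, Rab6b peaks in CO-CM, Rab7b is low in PH-CM, and Rab27a is lower in both media than in UNX.

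Among the Rabs of early endosomes and phagosomes, 2 of 11 members rose and none fell with PH-CM against UNX, where 31.3% and 31.7% of all genes did, and 3 of 11 were higher with PH-CM than with CO-CM, as were 12.2% of all genes. Rab20, which takes part in phagosome maturation in macrophages, stood at 7.78, 6.81 and 8.94 CPM in UNX, 10.3, 9.28 and 9.45 in CO-CM and 21.3, 23.3 and 26.5 in PH-CM. All PH-CM libraries lie above all others. Its log2 fold change was 1.59 ± 0.11 (SE) for PH-CM against UNX (adjusted p = 4.18e-07) and 1.29 ± 0.11 for PH-CM against CO-CM (adjusted p = 1.15e-05). Against UNX the CO-CM libraries were also called higher, at 0.30 ± 0.11 (adjusted p = 0.034). That call was lost without UNX replicate 1 (adjusted p = 0.0836), UNX replicate 2 (0.154), CO-CM replicate 1 (0.0972) or CO-CM replicate 3 (0.0558), and under 8 of 20 alternatives in all. Rab20 lies at chr8:11453518-11478710, and 356 of its exon bases are shared with E230013L22Rik on the opposite strand.

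The 3 forms of Rab5, the Rab that drives fusion of early endosomes, moved apart. Rab5b rose from 129, 140 and 134 CPM in UNX to 179, 185 and 178 in CO-CM and 220, 220 and 214 in PH-CM. The 3 groups do not overlap, with log2 fold changes of 0.43 (adjusted p = 1.02e-05) for CO-CM and 0.70 (adjusted p = 2.03e-07) for PH-CM against UNX. Between the media Rab5b differed by 0.27, just past the fold change of 1.2, and without CO-CM replicate 1, CO-CM replicate 3 or PH-CM replicate 2 it lay at 0.26 and was not called. In all, 9 of 20 alternatives took this call away, with values down to 0.23 under upper-quartile factors. Rab5c, the most abundant form, had 450, 458 and 456 CPM in UNX, 328, 343 and 351 in CO-CM and 410, 427 and 432 in PH-CM. It was lower in all CO-CM libraries than in any other, with a log2 fold change of -0.42 against UNX (adjusted p = 1.3e-05), and PH-CM lay 0.31 above CO-CM (adjusted p = 0.00033). Against UNX, Rab5c under PH-CM had a log2 fold change of -0.10 (adjusted p = 0.0529). Rab5a had 69.4 ± 1.35 CPM in UNX, 79.1 ± 3.32 in CO-CM and 80.5 ± 2.02 in PH-CM, below the fold change of 1.2. As a share of the summed RPKM of the 3 forms, Rab5b held 11.6% to 12.3% in UNX, 18.1% to 18.8% in CO-CM and 18.0% to 19.1% in PH-CM, whereas Rab5c held 76.7% to 77.5%, 65.9% to 68.3% and 68.2% to 69.8%.

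Effectors of Rab5 from the list of Rab effectors moved in both directions. Eea1, the endosome tether that binds Rab5, had 309 ± 13.5 CPM in UNX, 185 ± 21.8 in CO-CM and 287 ± 23.0 in PH-CM. It fell with CO-CM (log2 fold change -0.74, adjusted p = 2.34e-05) and was 0.63 higher with PH-CM than with CO-CM (adjusted p = 0.000236). Appl2, an adaptor on a subset of early endosomes, stood at 120 ± 33.3, 127 ± 16.4 and 202 ± 38.2 CPM and was higher with PH-CM than with UNX (0.75, adjusted p = 0.0047) and than with CO-CM (0.67, adjusted p = 0.0194). Appl1, the close relative of Appl2, went the other way, from 75.4 ± 1.48 CPM in UNX to 64.1 ± 3.88 in CO-CM and 54.6 ± 1.39 in PH-CM, and fell with PH-CM against UNX (-0.46, adjusted p = 1.29e-05). Of the rabaptins, Rabep1 was lower with PH-CM than with CO-CM (-0.32, adjusted p = 0.000159) and Rabep2 was higher (0.28, adjusted p = 0.000745). Ankfy1, known as rabankyrin-5, was 0.39 higher with PH-CM than with CO-CM (adjusted p = 0.000509), and Rbsn, known as rabenosyn-5, lay at 0.17 and was not called. Other members of this compartment, among them Rab14, Rab21, Rab22a, Rab24 and Rab31, were called in no comparison. Of the 2015 exon bases of Rab24, 1258 are shared with Prelid1 on the opposite strand. Rab4a, a Rab of fast recycling, had 3.33, 5.22 and 5.6 CPM in UNX, 3.42, 4.59 and 4.69 in CO-CM and 4.97, 6.68 and 6.30 in PH-CM, and was not called (PH-CM against CO-CM 0.50, adjusted p = 0.0791). With the replicate number as a block it was called higher under PH-CM, by 0.36 against UNX (adjusted p = 0.00706) and by 0.50 against CO-CM (adjusted p = 0.00193). The difference from CO-CM was called under 6 of 20 alternatives, among them DESeq2 (adjusted p = 0.0484) and the fit without UNX replicate 1 (adjusted p = 0.0254).

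In the group of recycling and surface delivery, 3 of 9 members rose with PH-CM against UNX and none fell, beside 31.3% and 31.7% of all genes. Rab8b, which carries vesicles to the plasma membrane, had 410, 451 and 447 CPM in UNX, 503, 469 and 452 in CO-CM and 749, 756 and 772 in PH-CM. The lowest CO-CM library lies just above the highest UNX library, and every PH-CM library is well above both groups. The log2 fold change was 0.80 ± 0.056 against UNX (adjusted p = 4.4e-07) and 0.68 ± 0.056 against CO-CM (adjusted p = 9.74e-06), while CO-CM against UNX gave 0.12 (adjusted p = 0.0728). By median RPKM, Rab8b moved from rank 6 of the family in UNX to rank 3 in PH-CM, at 159 RPKM. Its close relative Rab8a had 131 ± 3.63, 121 ± 1.70 and 134 ± 0.693 CPM and was not called, and Rab8b made up 76.2% to 77.1% of the summed RPKM of the pair in UNX, 78.4% to 80.3% in CO-CM and 84.6% to 85.1% in PH-CM.

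Rab13, a Rab of junctions and the cell surface, had 9.87 ± 0.0842 CPM in UNX, 11.8 ± 0.981 in CO-CM and 14.2 ± 1.52 in PH-CM, and rose with PH-CM (log2 fold change 0.52, adjusted p = 0.000386). For PH-CM against CO-CM and for CO-CM against UNX it lay at 0.26, at the edge of the fold threshold, and was not called. Of 20 alternatives, 5 changed the former outcome and 6 the latter. Rab12, which directs recycling endosomes to lysosomes, rose by 0.27 and 0.30 on the log2 scale under PH-CM and CO-CM, at the edge of the fold threshold. When UNX replicate 1 or 2, or likewise PH-CM replicate 2 or 3, was left out, the PH-CM value of Rab12 lay between 0.23 and 0.26 and was not called, and without UNX replicate 1 its CO-CM value was 0.25 and was not called. Of 20 alternatives, 7 took away the PH-CM call of Rab12 and 4 its CO-CM call, with values down to 0.21 and 0.23 under library size alone. Rab11a, the Rab of the recycling endosome, had 116 ± 2.37 CPM in UNX, 99.6 ± 3.1 in CO-CM and 123 ± 1.15 in PH-CM. It was 0.30 higher with PH-CM than with CO-CM (adjusted p = 0.000206). Rab40c, which carries a SOCS box and serves ubiquitin ligases, went the other way, with 29.6 ± 0.568, 34.5 ± 1.75 and 26.2 ± 0.998 CPM, and PH-CM lay below CO-CM by 0.40 on the log2 scale (-0.40, adjusted p = 0.000301). Rab10, Rab11b and Rab35 were called in no comparison.

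The Rabs of the ER and Golgi had 5 of 11 members higher and none lower with PH-CM against UNX, beside 31.3% and 31.7% of all genes, and 5 higher and 1 lower with CO-CM, beside 28% and 28.9%. Rab43, which acts between the ER and the Golgi, had 3.81, 4.36 and 4.40 CPM in UNX, 6.73, 6.87 and 6.40 in CO-CM and 7.96, 10.4 and 8.75 in PH-CM. The 3 groups are separate and rise in that order. Its log2 fold change was 1.11 ± 0.11 for PH-CM (adjusted p = 7.58e-06) and 0.67 ± 0.11 for CO-CM (adjusted p = 0.000393) against UNX, and 0.44 ± 0.11 between the media (adjusted p = 0.0103). Its values are uncertain, since 4164 of its 5526 exon bases are shared with Gm45140 on the same strand. Rab6b, the neuronal form of the Golgi Rab Rab6, was highest in CO-CM. It had 6.82, 6.45 and 6.24 CPM in UNX, 15.0, 14.2 and 12.1 in CO-CM and 9.25, 8.47 and 7.57 in PH-CM, and the groups do not overlap. The log2 fold change was 1.08 ± 0.10 for CO-CM (adjusted p = 5.88e-06) and 0.38 ± 0.10 for PH-CM (adjusted p = 0.00734) against UNX, and -0.71 ± 0.10 for PH-CM against CO-CM (adjusted p = 0.000384). The common form Rab6a was called in no comparison and held 95.4% to 95.6% of the summed RPKM of the pair in UNX, 90.04% to 91.4% in CO-CM and 94.2% to 94.96% in PH-CM.

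Rab33b, a Golgi Rab that also serves autophagy, Rab34, which positions lysosomes near the Golgi, and Rab2b rose with both media. Rab33b had 13.2 ± 0.377 CPM in UNX, 18.0 ± 1.54 in CO-CM and 19.1 ± 0.621 in PH-CM, with log2 fold changes of 0.45 and 0.54. Rab34 had 10.8 ± 0.265, 14.4 ± 0.854 and 14.1 ± 0.460 CPM (0.42 and 0.39), and Rab2b had 3.34 ± 0.547, 4.86 ± 0.474 and 4.71 ± 0.311 CPM (0.54 and 0.49). Without the 3 libraries numbered 1, neither call of Rab2b was kept (adjusted p = 0.0511 for PH-CM and 0.0591 for CO-CM, edgeR). Rab2b shares 2664 exon bases with Gm43766 and Tox4 on the opposite strand, and Rab33b shares 661 with Gm38160. For PH-CM against CO-CM, Rab33b, Rab34 and Rab2b lay at 0.09, -0.03 and -0.05 and were not called. Rab1a and Rab1b, which carry cargo from the ER to the Golgi, lay below UNX in both media. Rab1b had 261, 259 and 272 CPM in UNX, 220, 221 and 238 in CO-CM and 217, 220 and 230 in PH-CM. Every treated library is below every UNX library, with log2 fold changes of -0.22 (adjusted p = 0.00176) and -0.25 (adjusted p = 0.000743), below the fold change of 1.2 that a call needs. With UNX replicate 1 or 2, or else PH-CM replicate 3, left out the PH-CM value was -0.27 and was called. Rab1a fell with CO-CM (359 ± 7.37 to 299 ± 14.7 CPM, log2 fold change -0.26, adjusted p = 0.000695) and was not called at -0.22 without CO-CM replicate 2 or at -0.26 without either of PH-CM replicates 2 and 3. Of 20 alternatives, 6 took away this call of Rab1a and 6 added the PH-CM call of Rab1b. Rab19 was called lower under CO-CM only with the replicate block (-0.28, adjusted p = 0.0383, against 0.388 without it).

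Among the Rabs of late endosomes, lysosomes and related organelles, 3 of 6 members rose and 2 fell with PH-CM against UNX, beside 31.3% and 31.7% of all genes, while 2 rose and none fell with CO-CM, beside 28% and 28.9%. Rab7, which drives fusion of late endosomes and phagosomes with lysosomes, was the most abundant member by median RPKM. It had 460, 518 and 504 CPM in UNX, 565, 551 and 588 in CO-CM and 651, 646 and 671 in PH-CM, and the groups are separate. The log2 fold change was 0.41 ± 0.054 for PH-CM against UNX (adjusted p = 5.35e-05). CO-CM against UNX gave 0.20 and PH-CM against CO-CM 0.21, neither of which reached a fold change of 1.2. Rab7b, a separate gene that limits Toll-like receptor signaling in macrophages, had 243, 297 and 307 CPM in UNX, 274, 288 and 347 in CO-CM and 189, 185 and 211 in PH-CM. All PH-CM libraries lie below all others, whereas UNX and CO-CM overlap. Its log2 fold change was -0.53 ± 0.11 against UNX (adjusted p = 0.00101) and -0.64 ± 0.11 against CO-CM (adjusted p = 0.00104), and 0.10 for CO-CM against UNX (adjusted p = 0.408). Of the summed RPKM of Rab7 and Rab7b, Rab7b held 22.9% to 25.5% in UNX, 21.5% to 25.0% in CO-CM and 13.9% to 15.1% in PH-CM.

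Rab9, which returns receptors from late endosomes to the Golgi, had 18.7, 23.3 and 22.3 CPM in UNX, 40.8, 44.6 and 44.2 in CO-CM and 40.8, 38.8 and 39.0 in PH-CM. Every treated library is above every UNX library and the treated groups meet at 40.8. The log2 fold change was 1.01 ± 0.0785 for CO-CM (adjusted p = 1.34e-06) and 0.88 ± 0.0785 for PH-CM (adjusted p = 2.61e-06) against UNX, and -0.13 ± 0.077 between the media (adjusted p = 0.215). Rab29, a partner of the kinase Lrrk2, rose with both media, from 21.8 ± 0.776 CPM to 30.6 ± 0.501 in CO-CM and 28.7 ± 1.30 in PH-CM (0.49 and 0.40). Lrrk2 itself had 15.8 ± 0.399, 14.7 ± 0.408 and 9.69 ± 0.294 CPM and was lower with PH-CM than with UNX (-0.71, adjusted p = 1.81e-06) and than with CO-CM (-0.60, adjusted p = 3.51e-05). Rab39, a Rab of phagosome acidification, fell from 2.33 ± 0.604 CPM in UNX to 1.24 ± 0.230 in PH-CM (-0.90, adjusted p = 0.00556). With CO-CM it had 1.59 ± 0.333 CPM (-0.54, adjusted p = 0.0569), and this passed with the replicate block (-0.54, adjusted p = 0.021), without UNX replicate 3 (-0.72, adjusted p = 0.0258) or without CO-CM replicate 1 (-0.71, adjusted p = 0.0319), and under 7 of 20 alternatives in all.

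Of the 4 measured members linked to secretory granules, 1 fell and none rose with PH-CM against UNX, beside 31.7% and 31.3% of all genes. Rab27a, which docks secretory lysosomes and exosome-bearing endosomes at the plasma membrane, had 4.51, 4.24 and 4.34 CPM in UNX, 2.38, 1.68 and 2.14 in CO-CM and 1.49, 1.16 and 1.30 in PH-CM. The 3 groups are separate and fall in that order. Its log2 fold change was -1.08 ± 0.15 for CO-CM (adjusted p = 0.000101) and -1.73 ± 0.16 for PH-CM (adjusted p = 3.34e-06) against UNX, and -0.65 ± 0.16 between the media (adjusted p = 0.0101). Rab27a shares 149 of its 3879 exon bases with Gm27186 on the same strand. Rab3d, a Rab of regulated secretion, rose with CO-CM (62.2 ± 3.96 to 81.4 ± 4.08 CPM, log2 fold change 0.39, adjusted p = 0.000274) and stood at 68.3 ± 3.91 CPM in PH-CM. Rab3a and Rab37 were called in no comparison. Of the cilium-linked pair, Rab23, a brake on Hedgehog signaling, fell from 9.60 ± 0.996 CPM in UNX to 6.47 ± 0.739 in CO-CM and 6.28 ± 0.936 in PH-CM (-0.57, adjusted p = 0.00258, and -0.61, adjusted p = 0.00144), and Rab28 was not called.

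Levels within the family spanned a wide range. By the median RPKM over 9 libraries, Rab7 led with 217, followed by Rab5c with 191 and Rab1b with 123. At least 100 RPKM were reached by 4 members, 10 to 100 by 21, 1 to 10 by 14, and 5 lay below 1. Rab7 had an RPKM of 184 to 203 in UNX, 204 to 220 in CO-CM and 242 to 252 in PH-CM. Rab5c had 212 to 214, 150 to 156 and 188 to 193, so that Rab5c was the highest member in UNX and Rab7 in both treated groups. Rab1b had 144 to 151, 116 to 126 and 117 to 123. Together these 3 made up 36.5% to 36.7% of the summed RPKM of the members in UNX, 33.0% to 34.2% in CO-CM and 34.6% to 35.5% in PH-CM. By CPM, which is not set per length, the top 3 are Rab7, Rab8b and Rab5c, and their share was highest in PH-CM, at 34.5% to 35.4%, against 28.4% to 29.4% in UNX and 28.4% to 28.9% in CO-CM. The summed RPKM itself was 1501 to 1528 in UNX, 1408 to 1472 in CO-CM and 1567 to 1610 in PH-CM. RPKM depends on the exon length the authors used, which for Rab18, Rab5a and Rab1b is 2257, 2357 and 1835 bases, against 6850, 5270 and 2272 in the GENCODE annotation used here. For Rab31 it is 3476 against 3813 bases. Of 43 members compared, 39 were within 1% of the annotated length, and Rab44 was not among those compared. The reads and RPKM of Rab44 in PH-CM imply a length below its 5065 annotated exon bases, which raises its RPKM.

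**Figure D3:**
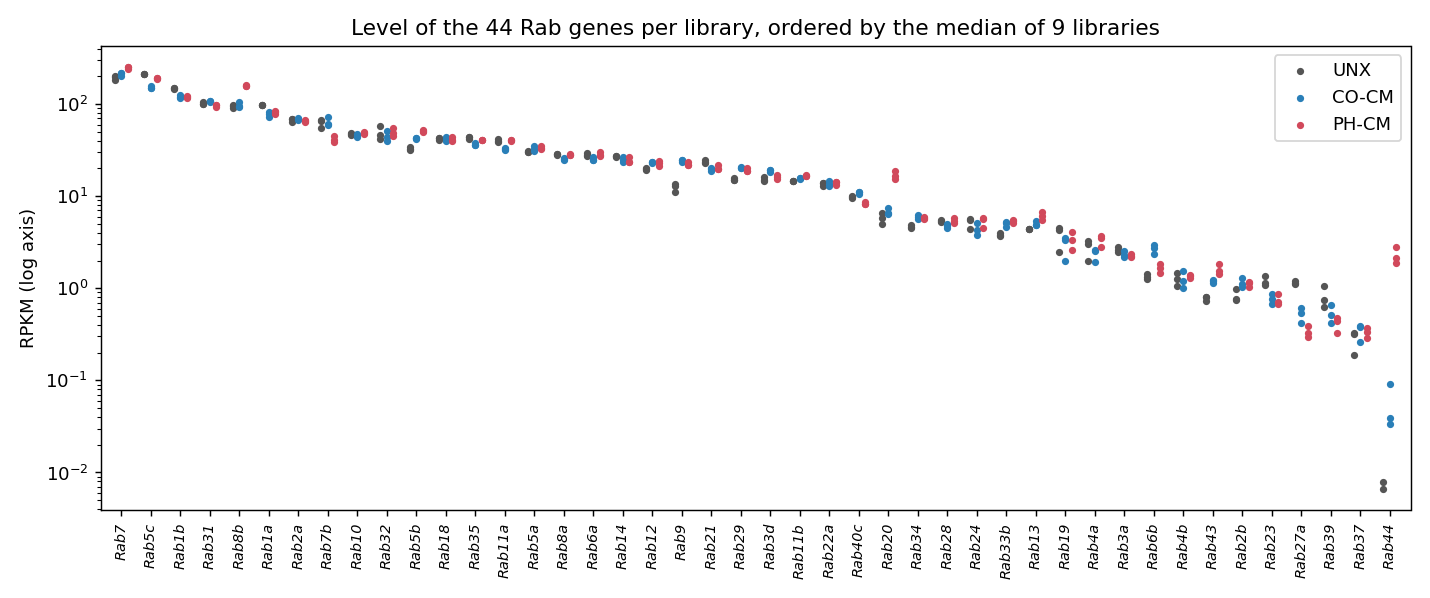
RPKM (y axis, log scale) of the 44 Rab genes in each library, ordered on the x axis by the median over 9 libraries and coloured by group. Levels fall from 217 for Rab7 to below 1, Rab8b, Rab20 and Rab44 stand out by their PH-CM points, and the UNX library of Rab44 at 0 cannot be drawn on a log axis.

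Set by pairs, the share held by a form differed between groups in some pairs and overlapped in others. The shares of Rab5b, Rab8b, Rab7b and Rab6a are given above. Rab11b held 25.9% to 27.6% of the summed RPKM of Rab11a and Rab11b in UNX, 32.1% to 32.9% in CO-CM and 28.7% to 29.8% in PH-CM, and these ranges do not overlap. The summed RPKM of that pair was 53.5 to 55.9, 47.5 to 49.0 and 56.8 to 57.8. For Rab1, by comparison, the share of Rab1b overlapped between the groups, at 59.7% to 60.7%, 59.5% to 61.9% and 58.5% to 60.1%. These pairs were chosen after the values were seen, so no test is given.

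**Figure D4:**
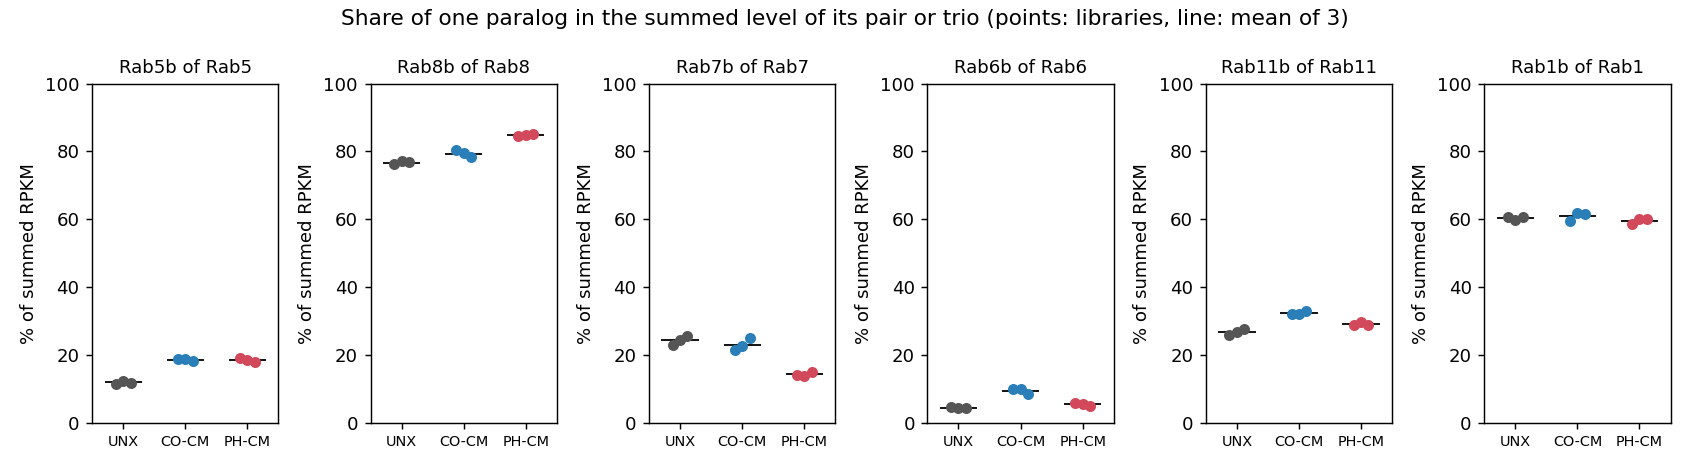
Percent of the summed RPKM of a pair or trio of close Rab forms (y axis, 0 to 100) held by 1 form, per library (points) and as the mean of 3 (line), by group on the x axis. Rab5b is higher in both media than in UNX, Rab8b rises and Rab7b falls in PH-CM, Rab6b and Rab11b peak in CO-CM, and Rab1b overlaps between groups.

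The machinery around the Rabs was taken from lists of genes. Of 36 Rab GEFs tested, 15 were higher and 5 lower with PH-CM than with UNX (41.7% and 13.9%, beside the 31.3% and 31.7% of all genes), with a median log2 fold change of 0.20. With CO-CM, 11 were higher and 4 lower (30.6% and 11.1%, beside 28% and 28.9% of all genes), and between the media 5 and 4 (13.9% and 11.1%, beside 12.2% and 15%). The count of 4 GEFs called lower between the media changed by over 1.5 times when a CO-CM library was left out, as given below. Dennd4a, a GEF of the DENN family that acts on Rab10, rose with PH-CM from 28.7 ± 1.2 to 59.3 ± 1.42 CPM (1.05, adjusted p = 3.6e-06) and was 0.86 above CO-CM (adjusted p = 7.87e-05). Ric1, part of the GEF for Rab6, rose from 36.4 ± 1.99 to 73.7 ± 3.56 CPM (1.02, adjusted p = 2.47e-07). Dennd2c, a DENN family member, fell with PH-CM by 2.31 on the log2 scale. Dennd5b lay between 1.23 and 2.41 CPM in UNX, 0.998 and 1.49 in CO-CM, and 0.692 and 0.952 in PH-CM. Its passing of the filter rests on UNX, where it is high, so these values are a description. Rab3il1, a GEF of the Rabin family that acts on Rab8, stood at 204 ± 5.39 CPM in UNX, 124 ± 1.13 in CO-CM and 191 ± 5.86 in PH-CM, 0.63 higher with PH-CM than with CO-CM (adjusted p = 2.03e-06). Dennd2a and the Rab5 GEF gene Rin2 were lower with PH-CM than with CO-CM, by -0.83 (adjusted p = 0.0199) and -0.67 (adjusted p = 0.000632).

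Rab GAPs had 19 of 38 genes higher and 7 lower with PH-CM than with UNX (50.0% and 18.4%, beside 31.3% and 31.7% of all genes). The counts were 15 and 7 with CO-CM (39.5% and 18.4%, beside 28% and 28.9%), and 6 and 7 between the media (15.8% and 18.4%, near the 12.2% and 15% of all genes). Their median log2 fold change for PH-CM against UNX was 0.26. Tbc1d9 rose from 62.2 ± 5.68 CPM in UNX to 98.5 ± 10.9 in CO-CM and 147 ± 9.34 in PH-CM (1.24 for PH-CM, adjusted p = 5.75e-07, and 0.57 between the media, adjusted p = 0.000603). Tbc1d17 rose from 38.0 ± 2.42 to 78.6 ± 2.78 CPM in PH-CM (1.05, adjusted p = 1.18e-07). Tbc1d1 and Tbc1d4, GAPs of the Rabs that move glucose transporter vesicles, changed in opposite directions with PH-CM. Tbc1d1 fell from 98.9 ± 7.13 to 42.7 ± 0.699 CPM (-1.21, adjusted p = 1.74e-08) and was also lower than with CO-CM (-0.84, adjusted p = 1.94e-06). Tbc1d4 rose from 25.8 ± 1.06 to 43.7 ± 3.73 CPM (0.76, adjusted p = 2.76e-05) and was 0.73 higher than with CO-CM (adjusted p = 0.000168). Tbc1d31 fell with PH-CM by 1.17 on the log2 scale, and Tbc1d8 was lower with PH-CM than with CO-CM (-0.47, adjusted p = 0.000984).

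Rab effectors had 20 of 44 genes higher and 8 lower with PH-CM than with UNX (45.5% and 18.2%, beside 31.3% and 31.7% of all genes). With CO-CM they were 21 and 7 (47.7% and 15.9%, beside 28% and 28.9%), and between the media 8 and 7 (18.2% and 15.9%, beside 12.2% and 15%). Besides Eea1, Appl2 and Lrrk2, Rilpl2, which binds Lrrk2-phosphorylated Rabs, rose from 34.3 ± 9.89 CPM to 99.4 ± 14.0 in CO-CM and 119 ± 19.1 in PH-CM (1.79 for PH-CM, adjusted p = 1.62e-05). Rab11fip4, a partner of Rab11, lay between 0.185 and 0.186 CPM in UNX, 1.08 and 1.38 in CO-CM, and 0.417 and 0.665 in PH-CM. It passed the filter only through the CO-CM libraries, where it is high, so it had to differ, and these values are a description although it is among the genes counted. Mlph passed only through treated libraries, with 0.339 to 0.676 CPM in UNX, 0.958 to 1.11 in CO-CM and 0.982 to 1.22 in PH-CM. It is counted as higher with both media than with UNX, and its values are likewise a description. Micall2, a partner of Rab13, stood at 41.5 ± 2.00 CPM in UNX, 23.3 ± 1.30 in CO-CM and 28.7 ± 2.07 in PH-CM. It fell with PH-CM (-0.53, adjusted p = 4.04e-05) and with CO-CM (-0.83, adjusted p = 2.01e-06) and was 0.30 higher with PH-CM than with CO-CM (adjusted p = 0.00574). Mical1, which disassembles actin filaments, was lower with PH-CM than with CO-CM (-0.78, adjusted p = 0.00153).

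Of 11 genes of the GDI and prenylation list, 2 rose and 2 fell with PH-CM and likewise with CO-CM against UNX (18.2% each way), and 2 were higher and 1 lower with PH-CM than with CO-CM (18.2% and 9.09%). Of all genes, 31.3% rose and 31.7% fell with PH-CM, 28% and 28.9% with CO-CM, and 12.2% and 15% were higher and lower between the media. Gdi2, a GDP dissociation inhibitor, stood at 652 ± 8.63, 558 ± 6.79 and 727 ± 13.8 CPM and was 0.38 higher with PH-CM than with CO-CM (adjusted p = 6.05e-05). Rabac1, which releases prenylated Rabs from GDI, rose by 0.57 with PH-CM, and the Rab prenylation genes Chml and Rabggtb fell by 0.67 and 0.59 on the log2 scale. Icmt, a methyltransferase of prenylated proteins, was 0.36 higher and Arl6ip5 0.32 lower with PH-CM than with CO-CM. Of 14 TRAPP subunits, which form a Rab1 and Rab11 GEF, 3 rose and 2 fell with PH-CM (21.4% and 14.3%) and 2 rose and 2 fell with CO-CM (14.3% each way) against UNX, and 1 was higher and 1 lower between the media (7.14% each way), below the shares of all genes just given. Trappc6a and Trappc3 rose with PH-CM by 0.50 and 0.30, Trappc2 and Trappc13 fell by 0.40 and 0.27 on the log2 scale, and Trappc5 was 0.32 higher and Trappc2 0.28 lower with PH-CM than with CO-CM.

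Tethers and fusion proteins act last, when a vesicle meets its target. Of 36 subunits of tethering complexes, 9 rose and 7 fell with PH-CM against UNX (25.0% and 19.4%), 6 rose and 3 fell with CO-CM (16.7% and 8.33%), and 2 were higher and 2 lower between the media (5.56% each way). Each of these shares is below that of all genes, which was 31.3% and 31.7%, 28% and 28.9%, and 12.2% and 15%. The Golgi tether subunit Cog4 and the HOPS subunit Vps39, a partner of Rab7, rose with PH-CM by 0.51 each, while Zw10 fell by 0.90 on the log2 scale. Vipas39 stood at 204 ± 24.2, 218 ± 35.4 and 136 ± 9.92 CPM and was lower with PH-CM than with UNX (-0.59, adjusted p = 0.00115) and than with CO-CM (-0.68, adjusted p = 0.00139). The CORVET subunit Tgfbrap1, a partner of Rab5, and the exocyst subunit Exoc3 were 0.47 and 0.31 higher with PH-CM than with CO-CM, and Vps54 was 0.37 lower. Of 45 SNAREs and SM proteins, which fuse the membranes, 14 rose and 2 fell with PH-CM against UNX (31.1% and 4.44%), 12 rose and 5 fell with CO-CM (26.7% and 11.1%), and 5 were higher and 2 lower between the media (11.1% and 4.44%). The shares of higher genes are near those of all genes (31.3%, 28% and 12.2%), and the shares of lower genes are smaller than theirs (31.7%, 28.9% and 15%). The 2 lower between the media became 7 without CO-CM replicate 1 and 4 without PH-CM replicate 3, and 1 without any single UNX library, CO-CM replicate 3 or PH-CM replicate 1. Vamp4 rose from 43.5 ± 4.95 to 84.5 ± 5.31 CPM in PH-CM (0.96, adjusted p = 2.06e-06) and Vamp5 by 0.85, while Bnip1 and the SNARE-recycling ATPase gene Nsf fell by 0.44 and 0.32 on the log2 scale. Stx2 and Stx11 were 0.50 and 0.44 higher with PH-CM than with CO-CM, and Bet1 and Nsf were lower (-0.34 and -0.27). Of 6 Rab-like proteins tested, 2 rose (Ift22 and Rabl2) and 1 fell (Ift27) with PH-CM (33.3% and 16.7%, beside 31.3% and 31.7% of all genes), 3 rose with CO-CM and none fell (28% and 28.9% of all genes), and Cracr2a and Ift27 were lower with PH-CM than with CO-CM (-0.44 and -0.31).

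**Figure D5:**
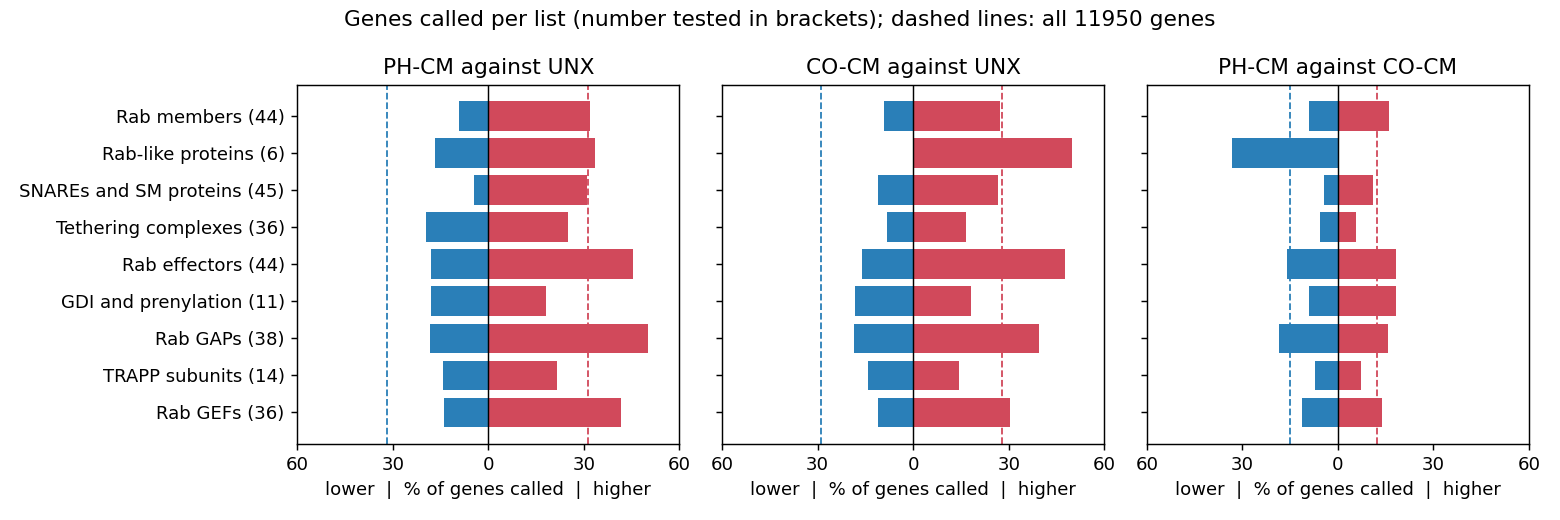
Percent of the tested genes of each list called higher (right) or lower (left) in the 3 comparisons, with the number tested in brackets and dashed lines at the share of all 11950 genes. With PH-CM against UNX the Rab members lie near the line for higher genes, as do the SNAREs and the Rab-like proteins, the GEFs, GAPs and effectors lie above it, the TRAPP, GDI and prenylation and tethering lists lie below it, and each list lies below the line for lower genes.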

How the data were processed

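RNA libraries of 9 macrophage cultures were made with a NuGen universal plus mRNA-Seq kit and sequenced as paired reads. According to the methods and the labels, the authors trimmed and aligned reads to GRCm38 with STAR, counted reads on exons with featureCounts (1.6.2), and deposited raw read counts per gene, with edgeR (3.14) and R (3.4.3) also named. The options given for featureCounts hold neither a strand nor a pair setting, so by its defaults strand was ignored and mates were counted singly, and even counts prevail in the table. The deposited RPKM values, made by the authors from the same counts, equal counts per exon length and library total with no composition factor. Where a gene shares exon bases with a partner on the other strand, strand does not separate the reads on those bases. How these reads were assigned was not tested. The deposited tables of the comparisons by the authors (fold changes and p-values) were not used. Of 53465 rows, 53274 IDs matched the annotation used for locations (GENCODE M21). Annotated promoter windows came from RefSeq.

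Counts were fitted over all 9 libraries with edgeR (4.0.16, R 4.3.3, limma 3.58.1) by the quasi-likelihood test with TMM factors, after keeping genes above 1 CPM in at least 3 libraries. A call needed a Benjamini-Hochberg adjusted p no higher than 0.05 with a fold change of 1.2 or more. CPM values used TMM-scaled library sizes, and the script was tested on simulated data. PH-CM against UNX and CO-CM against UNX share their control libraries. For a single value an exact permutation test of 3 against 3 cannot give a p below 0.1. P-values measure only the spread between culture repeats, and intervals cover counting error only.

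The members and gene lists were chosen with earlier results of these data known. Values in every library are given for Rab44, for members called with a fold change of at least 2 and for the 3 members with the highest median RPKM, and from each list the 2 largest called rises and falls with PH-CM against UNX and against CO-CM are named, except 1 item that is not reported here. Rab4a, Rab5b, Rab7b, Rab8b, the other named members and the Rab5 effectors Appl1, Rabep1, Rabep2, Ankfy1 and Rbsn were added after their values were seen. Libraries with the same replicate number deviated together (r from 0.276 to 0.484 in 9 pairs, against -0.376 to 0.0423 in the 18 other pairs), so the numbers pair the libraries, although no label says what a number stands for. Alternatives were DESeq2 (1.42.0), edgeR's exact test, other scalings, filters and fold thresholds, a replicate block and leaving out each library.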

Additional observations from a re-analysis of the deposited data

How the results depend on the processing

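Among the member counts and Rab44 values recomputed under the alternatives, 192 stayed within 1.5 times the reported count or within the replicate spread and 15 did not, and none changed sign. Without a fold threshold, 8 members were lower with PH-CM than with UNX, 19 were higher and 9 lower with CO-CM than with UNX, and 12 were higher with PH-CM than with CO-CM. With a fold change of at least 2, 3 were higher and 1 lower with PH-CM, 3 higher and 1 lower with CO-CM, and 2 higher and 0 lower between the media. Library size alone gave 8 members lower with CO-CM, with a median log2 fold change of -0.07 over all genes. Rab44 minus the mean of the other members rose by 8.67 with a prior count of 0.5 and by 6.58 with 5 for PH-CM against UNX, and by 3.27 and 1.57 for CO-CM, since UNX libraries held at most 2 reads.

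Leaving out each library in turn gave 12 to 14 members higher and 4 to 5 lower with PH-CM against UNX, 10 to 13 and 3 to 5 with CO-CM, and 5 to 9 and 4 to 5 between the media. The log2 fold change of Rab44 then ran from 8.28 to 9.38, from 2.91 to 4.0 and from 5.11 to 5.96, and its difference from the other members from 7.21 to 7.77, from 1.90 to 2.55 and from 5.00 to 5.65. Without the 3 libraries numbered 1, an alternative chosen after seeing the data, the counts were 12 and 4, 10 and 4, and 7 and 4, and Rab2b was no longer called under either medium (adjusted p = 0.0511 and 0.0591, edgeR). With the replicate block, 15 members were higher and 4 lower with PH-CM, 12 and 6 with CO-CM, and 8 and 4 between the media. The block added Rab4a, Rab19 and Rab39 and changed no other member's call. In the GDI and prenylation list it raised the genes lower with PH-CM than with CO-CM from 1 to 2. The counts of the pathway lists and the share of the top 3 members moved in 129 of their recomputed values and not in 937. A fold change of at least 2 moved 46 and no fold threshold 21, and the other settings moved 62. Among the latter, SNAREs and SM proteins lower with PH-CM than with CO-CM numbered 7 without CO-CM replicate 1, 4 without PH-CM replicate 3, 6 with upper-quartile factors, and 1 without any single one of the UNX libraries, CO-CM replicate 3 or PH-CM replicate 1. Rab GAPs lower between the media numbered 4 without PH-CM replicate 2, and Rab GEFs lower 2 without CO-CM replicate 3. With CO-CM against UNX, tethers lower numbered 5 without UNX replicate 2 and 6 with library size alone, which also gave 11 effectors lower. In the TRAPP, GDI and prenylation and Rab-like lists leaving out a library moved counts by at most 2 genes. Depth limits Rab44 in UNX and the 15 Rab genes below the filter.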

Other observations

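Of the 15 Rab symbols below the expression filter, of which Rab9b stands on a row annotated as a processed pseudogene, Rab17 and Rab3c had no read, and the others had from 0 to 68 reads per library. In a fit without the filter, Rab36 and Rab38 were lower with PH-CM than with CO-CM, and they are named here after their values were seen. Among all genes in the fit with the filter, 15% were lower in that comparison, so their number is no result about the family. Rab36, a Golgi Rab, held 4 to 14 reads in the UNX libraries, 30 to 54 in CO-CM and 12 to 18 in PH-CM, with log2 fold changes of 2.24 for CO-CM against UNX (adjusted p = 3.1e-05, edgeR) and -1.35 for PH-CM against CO-CM (adjusted p = 0.0138, edgeR). Rab38, a Rab of lysosome-related organelles, held 23 to 54, 40 to 68 and 14 to 30 reads, with -1.40 for PH-CM against CO-CM (adjusted p = 0.0017, edgeR). At these depths mates of a pair were counted singly, so the number of fragments is smaller than the number of reads.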
